A study of Homo sapiens with 40 samples.

Results

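The 32 genes described here are glycolytic enzymes and other genes induced by hypoxia, taken by symbol from a table of 28278 gene symbols measured in HEK293T cells. They were treated as 2 classes, with 19 glycolytic enzymes (including the regulators PFKFB3 and PFKFB4) and 13 other targets of the hypoxia-inducible factors (HIF). Of the 32, 31 were abundant enough to be tested among 16739 genes, and CA9, a cell-surface carbonic anhydrase, was not. Glycolysis splits glucose into pyruvate in the cytosol, and lactate dehydrogenase turns pyruvate into lactate when the mitochondria do not oxidise it. HIF is a pair of proteins, an oxygen-labile alpha subunit and the stable partner ARNT. With oxygen present, prolyl hydroxylases of the EGLN family mark the alpha subunit for destruction through VHL. Without oxygen HIF binds DNA at a short core sequence and raises glycolytic enzymes, the angiogenic factor VEGFA and its own hydroxylases.

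RNA was sequenced from HEK293T, a line derived from human embryonic kidney, in 5 lines after 6 hours in vehicle or in antimycin A at 40 nM, a blocker of complex III in the respiratory chain. Wild-type cells with vector (WT vector) and cells with a guide against SLC25A12 and vector (KO vector) were the reference lines. The remaining lines were labelled as carrying the SLC25A12 guide and as expressing SLC25A12-WT, SLC25A12-F137S, or SLC25A12-F137S together with dMTS-DELE1. They are called SLC25A12-WT cells, F137S cells and dMTS-DELE1 cells here. SLC25A12 is the mitochondrial aspartate and glutamate carrier, and DELE1 passes signals of mitochondrial stress to the integrated stress response. Each of the 10 groups had 4 libraries, labelled biological replicates, and the sources used here do not say whether they were separate cultures or whether a line was 1 clone. The p-values therefore measure only the spread between these libraries. Library totals ran from 30.7 M to 32 M counts. In such bulk RNA, fewer cells of a type and less RNA per cell cannot be told apart. Levels are in CPM, counts per M (mega) of a library's normalised total. A gene is said to rise, fall or change where its p from edgeR's quasi-likelihood test, adjusted by Benjamini-Hochberg over all tested genes, was below 0.05, and log2 fold changes are given ± SE with 4 libraries in each group.

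The libraries were first compared with their labels. In vehicle SLC25A12 stood at 39.9, 36.1, 39.9 and 39.0 CPM in WT vector cells and at 3.43, 2.99, 2.96 and 2.96 CPM in KO vector cells. It stood at 38.4 to 39.2 CPM in SLC25A12-WT cells, while F137S cells had 1825.6 to 1866.7 CPM and dMTS-DELE1 cells 3692.9 to 3744.6 CPM. DELE1 was 5272.2 to 5463.6 CPM in dMTS-DELE1 cells and 43.1 to 52.0 CPM in the other four lines. SLC25A12 in the libraries labelled SLC25A12-WT thus lay in the range of WT vector cells. Of the 16739 genes, 0 differed between SLC25A12-WT and WT vector cells in vehicle by edgeR, with 778 at an unadjusted p below 0.05 and 0 by DESeq2. Against KO vector cells 8004 genes differed in vehicle. The libraries labelled SLC25A12-WT are written as labelled below, although these counts do not set them apart from WT vector cells. Their comparisons with KO vector cells are given beside those of WT vector cells and are not read as a rescue. The embryonic kidney markers PAX2, PAX8, LHX1, SIX2 and EYA1 summed to 41.2 to 66.1 CPM over all libraries. SIX2 made most of that sum, with group means from 34.8 to 50.5 CPM. The highest group means were 0.0565 CPM for PAX8 and 0.862 CPM for LHX1, so these were scarce. The 7 markers of the mature nephron summed to no more than 1.03 CPM. A list of 5 neuronal markers, named below, summed to 151.1 to 379.5 CPM.

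The promoters of 4 members, chosen by hand from those lower in KO vector than in WT vector cells, are shown as a description. Other lower members, such as ALDOC, and the higher ones are not shown. Whether HIF had a part in the lower levels was not tested. Matches to the HIF core ACGTG or GCGTG are in capitals on either strand (CACGT and CACGC are the other-strand forms). The sequences run 5′ to 3′ and come from RefSeq on GRCh38.p14. Where a gene had several entries, the one with the fewest annotated exon bases is shown. Each window is cut at the first exon base annotated within it, and a CACGTG counts as 2 matches because it reads the same on both strands.
HK2, chr2:74834920-74835169, plus strand: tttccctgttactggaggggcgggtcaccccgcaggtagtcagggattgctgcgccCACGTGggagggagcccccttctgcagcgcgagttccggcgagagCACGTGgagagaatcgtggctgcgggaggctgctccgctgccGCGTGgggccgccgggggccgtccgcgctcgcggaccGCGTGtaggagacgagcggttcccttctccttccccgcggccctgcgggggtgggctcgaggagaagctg
PGK1, chrX:78103998-78104173, plus strand: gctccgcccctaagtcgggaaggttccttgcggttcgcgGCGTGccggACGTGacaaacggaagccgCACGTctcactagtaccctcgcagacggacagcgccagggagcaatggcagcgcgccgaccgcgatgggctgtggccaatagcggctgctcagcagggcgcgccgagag
BNIP3, chr10:131982014-131982173, minus strand: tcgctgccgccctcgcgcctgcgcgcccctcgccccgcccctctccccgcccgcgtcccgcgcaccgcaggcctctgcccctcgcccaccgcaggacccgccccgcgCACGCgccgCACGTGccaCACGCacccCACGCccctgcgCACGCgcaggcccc
EGLN3, chr14:33951082-33951324, minus strand: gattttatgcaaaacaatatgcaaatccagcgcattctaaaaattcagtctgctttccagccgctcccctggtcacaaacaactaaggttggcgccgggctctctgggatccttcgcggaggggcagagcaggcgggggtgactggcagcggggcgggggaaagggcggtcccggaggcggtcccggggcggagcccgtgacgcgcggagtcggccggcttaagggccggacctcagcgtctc

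The HK2 window held 6 matches, that of PGK1 3, that of BNIP3 6 and that of EGLN3 0. Those of HK2, PGK1 and EGLN3 lie inside the span of their genes, so they precede a start within the gene and not its outermost start. Over the 250 bases before each start, 29 of the 32 members had entries (all but VEGFA, BNIP3L and NDRG1), 55 in all, and 24 of those genes had at least 1 match. That count has no share of all genes beside it, and genes with several entries had more chances of a match. Of the 55 entries 60% held the core (55% for the enzymes, 73.3% for the other targets), against 43.2% of 35116 promoters of the same length. The stricter ACGTG was in 38.2% (37.5% and 40%), against 18.5%. Members were chosen as genes induced by hypoxia, so a higher share may come with that choice and is not a result of these data. The element TGATGNAA, searched on both strands as the form bound by C/EBP and ATF4 pairs, was in 2 of 55 entries (3.64%, against 3.14% of all). Both are overlapping entries of HK1, so this is 1 gene. These are matches of letters and not binding sites.

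Per length of exon, the most abundant members in WT vector cells in vehicle were GAPDH at 611.0 ± 6.50 CPM per kb (mean ± SD, n = 4), LDHB at 431.7 ± 5.56 and ENO1 at 420.3 ± 3.67. TPI1 followed at 344.9 ± 3.04. The scale of LDHB is uncertain because 33.4% of its exon bases lie under another gene on the same strand, AC010197.2, and GAPDH, TPI1, PGK1, ENO1, PGAM1 and LDHB have processed pseudogenes whose reads the authors' counting could have split. ALDOA, the aldolase of muscle and most other tissues, stood at only 9.13 ± 0.572 CPM, with 42.3% of its exon bases shared with AC093512.2, so its level is uncertain too. Among the HIF targets P4HA1, a collagen prolyl hydroxylase, and EGLN1 led at 21.7 ± 1.07 and 21.6 ± 0.0993 CPM per kb and did not differ beyond their spread. VEGFA stood at 3.17 ± 0.0872 CPM per kb. SLC16A3, the lactate exporter MCT4, and ANKRD37 were scarce, each below 1 CPM in every library. CA9 counts summed to between 0 and 10 over the 4 libraries of a group, and its highest library stood at 0.133 CPM.

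Antimycin A moved the members both ways within each class. In WT vector cells 6 glycolytic enzymes rose and 6 fell of 19, and 4 other HIF targets rose and 1 fell of 12, where 51.9% of all tested genes changed (25.5% rose and 26.4% fell). In KO vector cells 8 enzymes rose and 4 fell, and 5 targets rose and 1 fell, against 51% of all genes (26.4% and 24.7%). The counts were 6 and 6, and 4 and 1, in SLC25A12-WT cells (52.3% of all genes, 25.9% and 26.4%). F137S cells gave 5 and 4, and 3 and 2 (51.2% of all genes, 26.3% and 24.9%), and dMTS-DELE1 cells 5 and 5, and 5 and 2 (34.9%, 17.6% and 17.3%). The median log2 fold change in WT vector cells was 0.02 for the enzymes and 0.045 for the other targets, against 0.01 over all genes. In WT vector cells 17 of 31 members changed, a share near that of all genes. In WT vector cells the neuronal markers NEFL, NEFM, INA, STMN2 and GAP43 summed to 354.1 to 371.8 CPM in vehicle. With antimycin they summed to 288.9 to 303.9 CPM. NEFM (means 225.4 and 179.4 CPM) and NEFL (83.6 and 66.0 CPM) made most of that fall. INA (46.6 and 45.5 CPM) and GAP43 (1.32 and 1.41 CPM) hardly moved, and STMN2 was 4.09 and 3.07 CPM. The part of these markers in the responses was not tested.

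**Figure D1:**
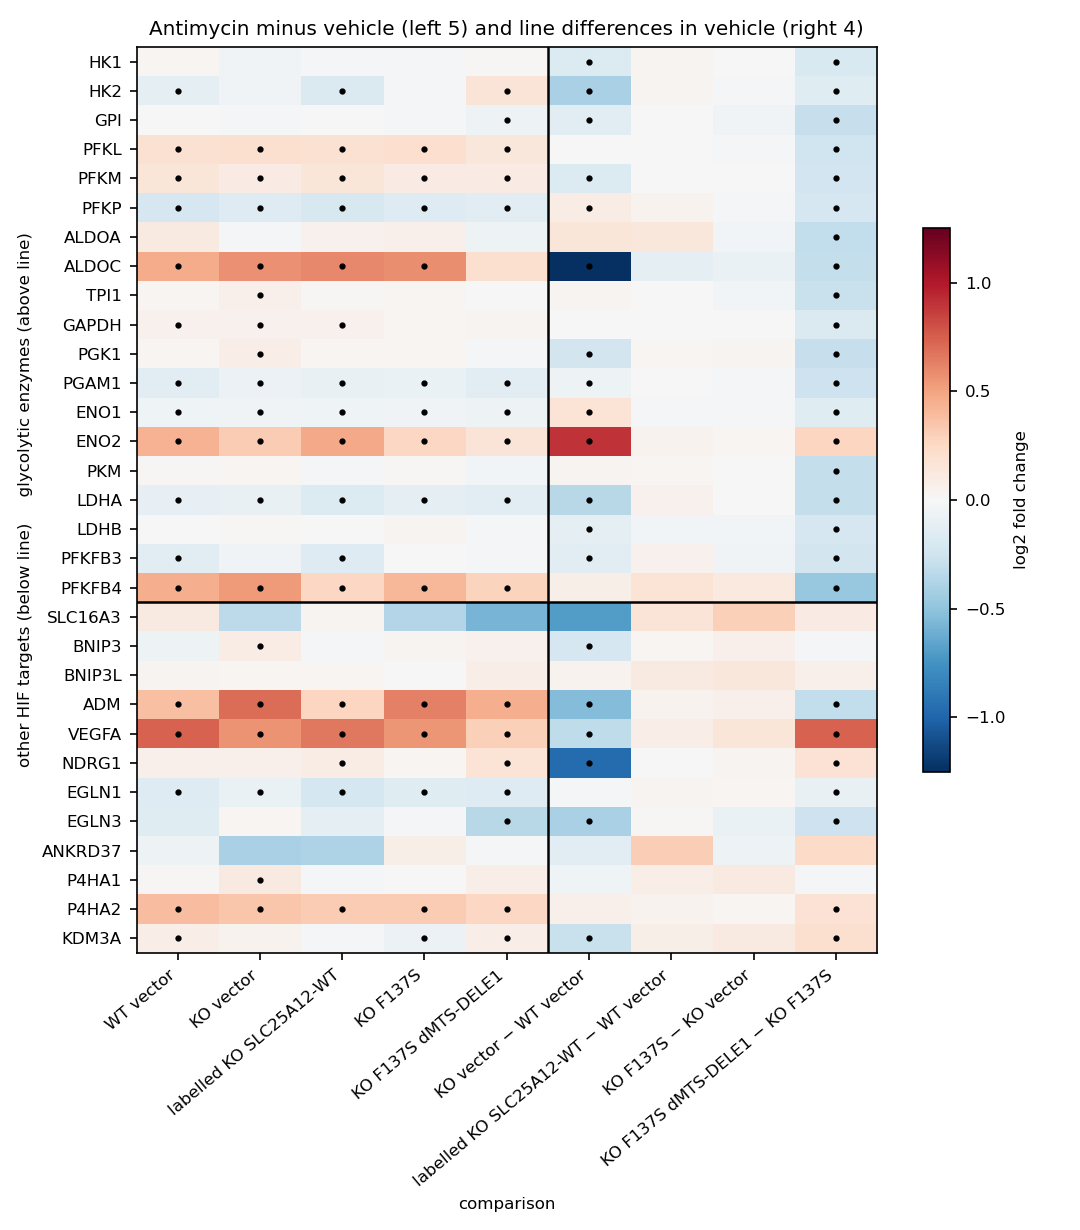
Log2 fold change of the 31 tested members (rows) for antimycin minus vehicle in each of the 5 lines and for 4 differences between lines in vehicle (columns), with red for higher and blue for lower. A dot marks an adjusted p below 0.05 by edgeR, and the column of dMTS-DELE1 minus F137S cells is blue for 18 of the 19 enzymes above the line.

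PFKL, PFKM, ENO2, PFKFB4, ADM, VEGFA and P4HA2 rose in all 5 lines, and PFKP, PGAM1, ENO1, LDHA and EGLN1 fell in all 5. ALDOC, the brain aldolase, rose in 4. HK1, ALDOA, PKM, LDHB, SLC16A3, BNIP3L and ANKRD37 changed in none. KDM3A rose in WT vector and dMTS-DELE1 cells and fell in F137S cells, and these calls were lost without 2, 6 and 7 of 8 libraries. The changes of ENO1 were small, from -0.07 to -0.04. They lost the call without any 1 of 2 libraries in WT vector cells (adjusted p 0.051 and 0.11, without antimycin replicates 1 and 4), and without 5 of 8 libraries in KO vector cells, 5 of 8 in SLC25A12-WT cells and 5 of 8 in F137S cells. That of PGAM1 in KO vector cells was lost without vehicle replicate 2 (adjusted p 0.11).

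VEGFA had the largest rise in WT vector cells. It stood at 45.3, 44.1, 46.3 and 47.0 CPM in vehicle and at 75.7, 75.4, 78.0 and 75.4 CPM with antimycin. Every treated library was above every vehicle library (log2 fold change 0.74 ± 0.041, adjusted p 7.3e-27). In KO vector cells the values were 33.4, 35.9, 41.5 and 36.1 CPM in vehicle and 53.0, 55.0, 51.9 and 56.2 CPM with antimycin, again without overlap (0.56 ± 0.042). SLC25A12-WT cells had a rise of 0.66 ± 0.041, F137S cells one of 0.55 ± 0.042 and dMTS-DELE1 cells one of 0.30 ± 0.040. ADM, which encodes the vasodilator peptide adrenomedullin, stood at 13.1, 14.2, 15 and 15 CPM in WT vector cells in vehicle and at 18.4, 17.1, 19.6 and 19.0 CPM with antimycin (0.37 ± 0.074, adjusted p 1.2e-05). In KO vector cells it went from 8.16, 10.8, 9.77 and 10.5 CPM to 15.2, 15.6, 16.7 and 16.4 CPM (0.70 ± 0.076, adjusted p 6.8e-13). The groups did not overlap in either line.

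ENO2, the neuronal form of enolase, stood at 19.6, 19.5, 19.3 and 19.1 CPM in WT vector cells in vehicle and at 26.6, 25.9, 25.9 and 26.2 CPM with antimycin (0.43 ± 0.046, adjusted p 2.3e-13), with no overlap. ALDOC stood at 13.8, 13.6, 14.6 and 16.3 CPM and rose to 21.1, 19.1, 19.2 and 20.7 CPM (0.46 ± 0.083, adjusted p 2.2e-06). In dMTS-DELE1 cells ALDOC was 4.63, 5.00, 5.38 and 3.99 CPM in vehicle and 5.18, 5.05, 6.17 and 5.49 CPM with antimycin, which overlap (0.20 ± 0.098, adjusted p 0.097). PFKFB4, which makes and breaks the allosteric activator of phosphofructokinase, rose by 0.46 ± 0.068 in WT vector cells. LDHA, the lactate-forming subunit, fell from 1449.8, 1488.0, 1455.6 and 1417.3 CPM to 1320.5, 1336.7, 1355.8 and 1388.4 CPM (-0.105 ± 0.019, adjusted p 3.4e-06). The 2 sets of LDHA values do not overlap.

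HK2, the hexokinase known to be induced by HIF, stood at 200.6, 196.9, 201.7 and 195.6 CPM in WT vector cells in vehicle and at 183.5, 183.1, 180.8 and 182.9 CPM with antimycin (-0.12 ± 0.025, adjusted p 1.9e-05). In dMTS-DELE1 cells it stood at 132.5, 129.5, 136.3 and 133.3 CPM in vehicle and at 152.9, 147.2, 145.0 and 148.9 CPM with antimycin (0.16 ± 0.025, adjusted p 2.7e-07). HK2 fell in the first line and rose in the second, without overlap in either. GAPDH was 1805.7, 1841.4, 1803.8 and 1834.4 CPM in WT vector cells in vehicle and 1876.7, 1897.5, 1940.8 and 1865.9 CPM with antimycin. That rise was small (0.06 ± 0.016, adjusted p 0.0022). PGK1 changed by 0.02 ± 0.017 (adjusted p 0.31), BNIP3, a mitophagy receptor, by -0.07 ± 0.038 (adjusted p 0.13) and NDRG1 by 0.06 ± 0.035 (adjusted p 0.14) in WT vector cells.

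**Figure D2:**
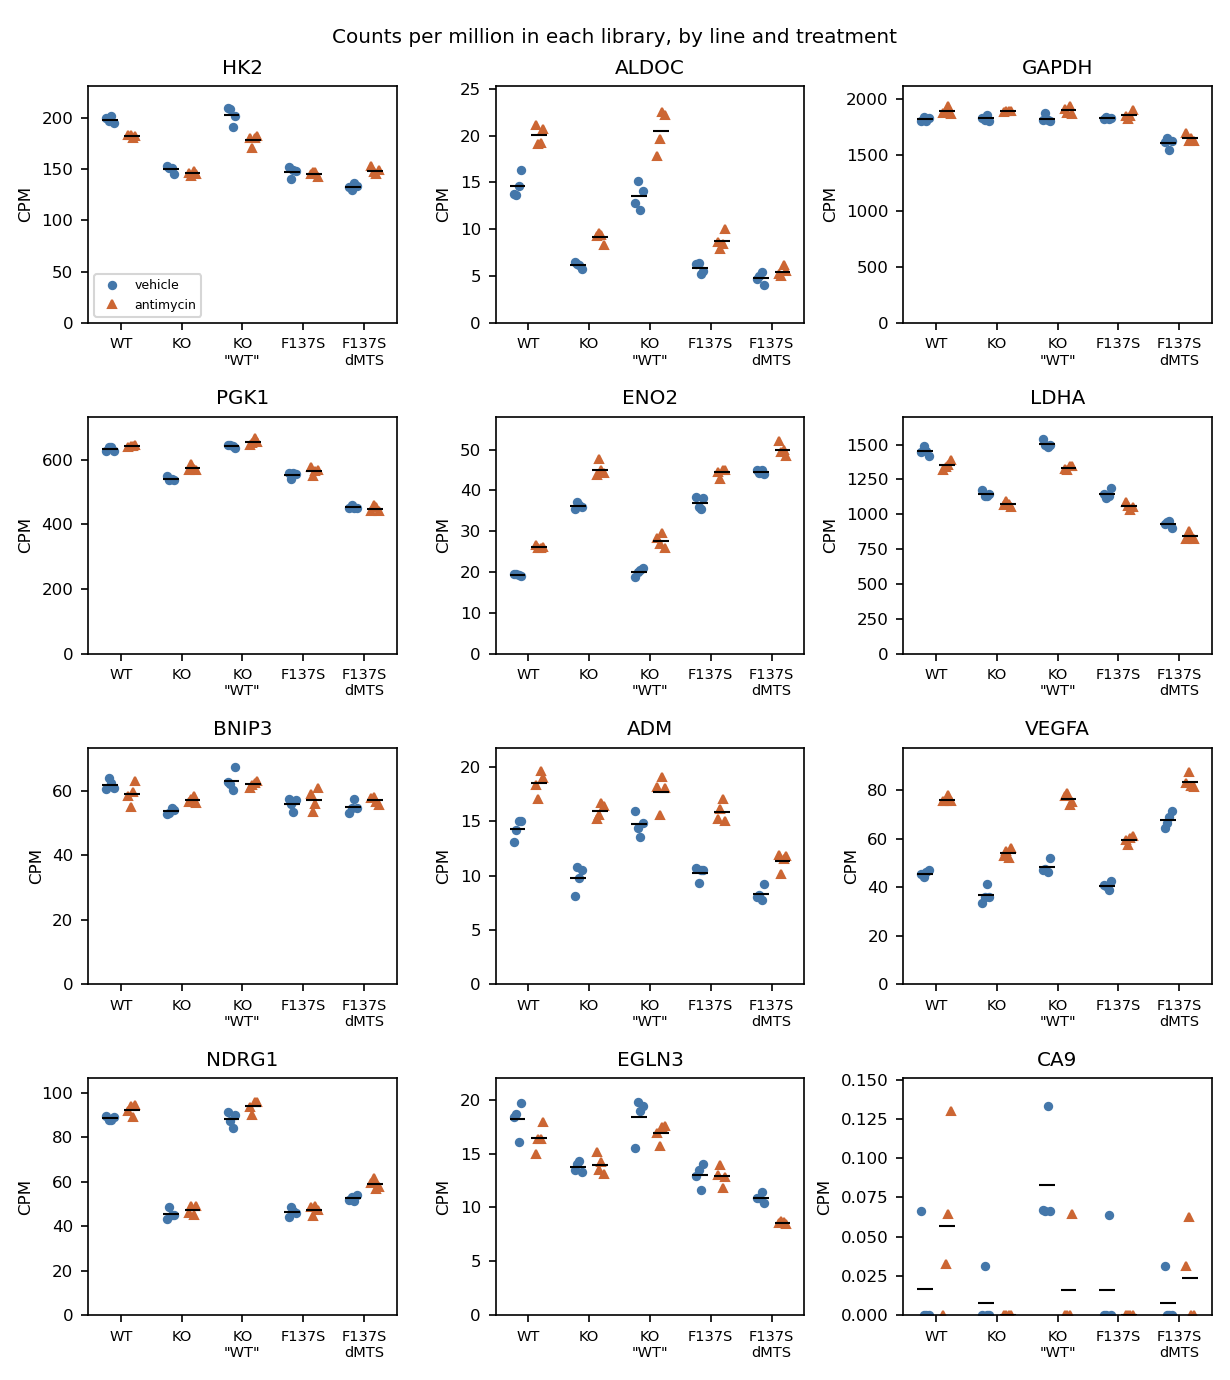
CPM of 12 members in each of the 40 libraries, with blue circles for vehicle, orange triangles for antimycin and a black line at the mean of 4 libraries, from an axis at 0. WT and KO are the vector lines, KO "WT" the libraries labelled SLC25A12-WT, F137S and F137S dMTS the remaining lines, and NDRG1 and ALDOC stand far lower in KO and F137S than in WT.

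In vehicle more members were lower than higher in KO vector cells. Effects of the guide and of any other difference between the lines cannot be told apart here. Against WT vector cells, KO vector cells had 10 glycolytic enzymes lower and 3 higher of 19, and 6 other HIF targets lower and 0 higher of 12, where 48.3% of all genes differed, 22.7% higher and 25.6% lower. With DESeq2 size factors 5 enzymes were higher and 10 lower. The median was -0.06 for the enzymes and -0.24 for the other targets, against -0.01 over all genes. NDRG1, a stress-induced growth regulator, stood at 89.5, 87.8, 87.7 and 89.3 CPM in WT vector cells and at 43.2, 48.4, 44.9 and 44.8 CPM in KO vector cells. All 4 KO vector libraries were below every WT vector library, 1.95-fold on the means (-0.97 ± 0.037, adjusted p 2.7e-37). ALDOC went from the 13.6 to 16.3 CPM above to 6.45, 6.25, 6.21 and 5.76 CPM in KO vector cells, which was 2.36-fold lower (-1.24 ± 0.089, adjusted p 9e-21). ENO2 was 35.5, 37.1, 36.4 and 36 CPM in KO vector cells, 1.87-fold higher (0.91 ± 0.045, adjusted p 4.5e-30). PFKP and ENO1 were the others higher, and the call for PFKP was lost without KO vector vehicle replicate 3 (adjusted p 0.087).

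LDHA stood at 1171.4, 1132.7, 1131.9 and 1142.2 CPM in KO vector cells (-0.34 ± 0.019, adjusted p 1.3e-24) and HK2 at 152.9, 151.8, 151.6 and 145.7 CPM (-0.40 ± 0.025, adjusted p 3.8e-24). Each was below every WT vector library. PGK1, which makes the first ATP of the pathway, was 626.9, 640.0, 637.3 and 627.3 CPM in WT vector and 549.1, 537.5, 540.3 and 535.8 CPM in KO vector cells (-0.23 ± 0.017, adjusted p 7.4e-20). BNIP3 was 60.5, 63.9, 62.5 and 61.0 CPM against 52.8, 53.2, 54.7 and 54.1 CPM (-0.21 ± 0.038, adjusted p 3.4e-06). EGLN3, a HIF prolyl hydroxylase, was 18.4, 18.7, 16.1 and 19.7 CPM against 13.5, 14, 14.3 and 13.3 CPM (-0.41 ± 0.071, adjusted p 1e-06). None of the 3 overlapped. ADM (-0.54 ± 0.077) and VEGFA (-0.315 ± 0.043) were lower too. GAPDH did not pass, at 0.01 ± 0.016 (95% interval -0.03 to 0.04, adjusted p 0.8). The call for PGAM1 (-0.06) was lost without WT vector vehicle replicate 2 (adjusted p 0.11) or KO vector vehicle replicate 1 (0.078).

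With antimycin the same line difference gave 4 enzymes higher and 8 lower, and 1 other target higher and 6 lower (48% of all genes, 23.5% higher and 24.5% lower). NDRG1 was again -0.97 ± 0.036 and ALDOC -1.13 ± 0.085. The higher target, EGLN1 (0.06 ± 0.023), lost its call without 7 of the 8 libraries, and TPI1 (0.07 ± 0.018), one of the higher enzymes, without KO vector antimycin replicate 3 (adjusted p 0.072). Other marker genes moved with the same libraries. The 5 neuronal markers summed to 354.1 to 371.8 CPM in WT vector and 185.9 to 192.4 CPM in KO vector cells in vehicle, with 0 of 5 at 0. NEFM made most of that difference (means 225.4 and 73.8 CPM), and NEFL was 83.6 and 65.2 CPM. INA was not lower (46.6 and 49.8 CPM). The embryonic kidney markers went from 63.7 to 65.1 CPM to 46.5 to 50.3 CPM. Their part in these differences was not tested.

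SLC25A12-WT cells against KO vector cells, which share the KO vector libraries with the comparison above, had 10 enzymes higher and 2 lower and 9 other targets higher and 0 lower in vehicle (47.8% of all genes, 25.3% higher and 22.6% lower). With antimycin 8 and 6 enzymes and 6 and 1 targets differed (48.2% of all genes, 24.7% higher and 23.5% lower). In vehicle EGLN1 (0.05 ± 0.023) kept its call without 2 of 8 libraries and PGAM1 (0.05 ± 0.021) without 3 of 8, and neither passed with DESeq2 size factors (adjusted p 0.12 and 0.088). That of the scarce SLC16A3 was lost without KO vector vehicle replicate 2 (adjusted p 0.08). With antimycin the 6 lower enzymes came to 3 to 5 whichever library was left out, with 3 without KO vector replicate 3, and PKM (-0.04 ± 0.017) kept its call in 0 of 8 cases. The lower target, EGLN1 (-0.08 ± 0.023), was lost without SLC25A12-WT antimycin replicate 2 (adjusted p 0.055). ENO2 was 18.7, 19.9, 20.4 and 20.9 CPM in SLC25A12-WT cells, and NDRG1 91.5, 87.2, 84.2 and 90.2 CPM, both within or near the range of WT vector cells. Against WT vector cells 0 of 31 members differed in vehicle (0% of all genes), with 5 at an unadjusted p below 0.05 and 0 by DESeq2. With antimycin 0 differed as well (0.00597%), with 1 unadjusted and 0 by DESeq2. The same held for F137S against KO vector cells, where 0 members differed in vehicle (0.0836% of all genes, with 5 unadjusted and 0 by DESeq2) and 0 with antimycin (0.114%, with 4 and 0). ALDOC was 6.28, 6.34, 5.23 and 5.48 CPM in F137S cells, and ENO2 38.5, 35.9, 35.5 and 38.1 CPM. For NDRG1 the F137S minus KO vector difference was 0.03 ± 0.038 (95% interval -0.04 to 0.11), and for VEGFA it was 0.15 ± 0.043 (0.06 to 0.23, adjusted p 0.26). Leaving out KO vector vehicle replicate 3 gave 1 member in vehicle, and leaving out F137S antimycin replicate 4 gave 1 with antimycin.

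dMTS-DELE1 cells were compared with F137S cells, whose libraries also stand in the comparison with KO vector cells above. In vehicle 18 of 19 enzymes were lower and 1, ENO2, was higher, while 4 other HIF targets were higher and 3 lower of 12. Of all genes 41.8% differed, 17.7% higher and 24.1% lower. The median was -0.25 for the enzymes and 0.08 for the other targets, against -0.02 over all genes. With antimycin 17 enzymes were lower and 1 higher, and 5 targets were higher and 3 lower (54.3% of all genes, 25.5% higher and 28.8% lower). Here the lines differ in SLC25A12 as well as DELE1 mRNA, as given above, and the effects of the 2 cannot be told apart. The summed enzymes took 11339.1 ± 94.5 CPM (mean ± SD, n = 4) in F137S and 9708.9 ± 152.0 CPM in dMTS-DELE1 cells in vehicle, and the other targets 533.1 ± 5.59 and 566.2 ± 8.24 CPM. The ranges of the 4 libraries did not overlap for either class. The neuronal markers summed to 183.2 to 196.2 CPM in F137S and 168.2 to 177.7 CPM in dMTS-DELE1 cells in vehicle. NEFL (means 64.1 and 51.7 CPM) and NEFM (72.2 and 60.9 CPM) were lower, and INA was higher (49.8 and 57.8 CPM). The part of these markers in the result was not tested.

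**Figure D3:**
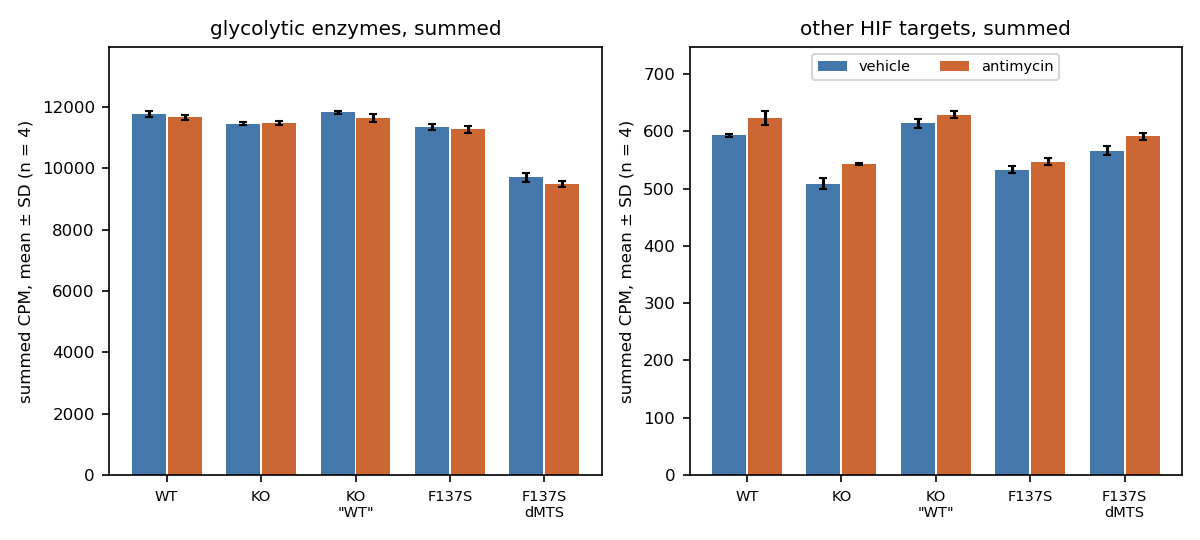
Summed CPM of the 19 glycolytic enzymes and the 13 other HIF targets by line and treatment, as the mean of 4 libraries with SD, on axes that start at 0. The enzymes stand near 11339 to 11826 CPM in 4 lines in vehicle and at 9709 CPM in dMTS-DELE1 cells.

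GAPDH stood at 1825.2, 1838.4, 1821.2 and 1833.0 CPM in F137S and at 1618.5, 1657.6, 1544.2 and 1629.1 CPM in dMTS-DELE1 cells in vehicle (-0.18 ± 0.016, adjusted p 1.1e-15). PGK1 stood at 559.1, 540.2, 559.3 and 555.5 CPM against 450.8, 459.6, 449.6 and 451.5 CPM (-0.29 ± 0.017, adjusted p 5.3e-25). LDHA stood at 1144.0, 1114.0, 1127.0 and 1186.4 CPM against 932.2, 940.5, 950.7 and 902.0 CPM (-0.295 ± 0.019, adjusted p 7.1e-21). Every dMTS-DELE1 library was below every F137S library for these 3. TPI1 (-0.28), PKM (-0.295), GPI (-0.29) and PFKFB4 (-0.47) were lower too. ENO2 was the exception, at 45.1, 44.3, 45.0 and 44.1 CPM against 35.5 to 38.5 CPM (0.27 ± 0.042, adjusted p 1.2e-07). ALDOC (-0.30 ± 0.097, adjusted p 0.0098) overlapped between the lines. Its call was lost without F137S vehicle replicate 2 (adjusted p 0.072), without dMTS-DELE1 vehicle replicate 4 (0.076) and when these groups were fitted alone (0.057).

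The other HIF targets split in the same libraries. VEGFA was 40.8, 40.5, 39.0 and 42.5 CPM in F137S cells and 64.5, 66.4, 68.9 and 71.3 CPM in dMTS-DELE1 cells in vehicle, 1.67-fold higher (0.74 ± 0.041, adjusted p 2.5e-26). ADM was 10.7, 9.29, 10.5 and 10.5 CPM against 8.01, 8.19, 7.73 and 9.21 CPM (-0.31 ± 0.079, adjusted p 0.00095), with all dMTS-DELE1 libraries lower. NDRG1 was 44.3, 48.7, 46.7 and 46.0 CPM against 51.9, 52.9, 51.3 and 53.8 CPM (0.18 ± 0.037, adjusted p 6.1e-05). KDM3A, a histone demethylase, and P4HA2, a collagen prolyl hydroxylase, were also higher (0.20 ± 0.032 and 0.18 ± 0.049). EGLN3 was 12.9, 13.5, 11.6 and 14 CPM against 10.9, 10.9, 11.4 and 10.4 CPM (-0.255 ± 0.073, adjusted p 0.0031), and EGLN1 was lower too (-0.09 ± 0.023). BNIP3 differed by -0.03 ± 0.038 (95% interval -0.1 to 0.05). With antimycin the P4HA2 call (0.13 ± 0.048) was lost without dMTS-DELE1 antimycin replicate 1 (adjusted p 0.066) or 4 (0.13).

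**Figure D4:**
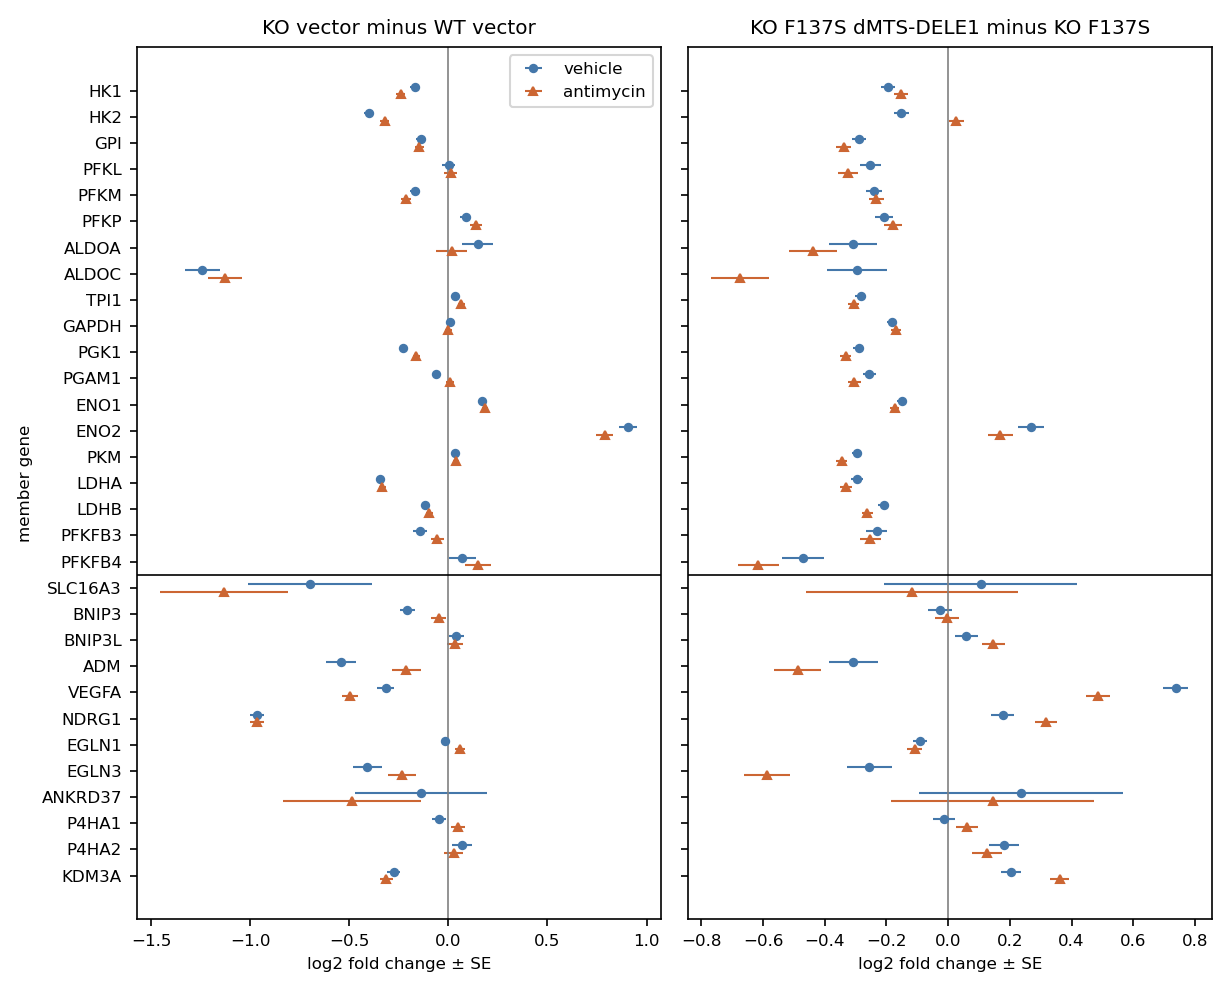
Log2 fold change ± SE of each tested member for KO vector minus WT vector and for dMTS-DELE1 minus F137S cells, in vehicle (blue circles) and with antimycin (orange triangles), with enzymes above the horizontal line. In the right panel all enzymes but ENO2 lie below 0 in vehicle, and VEGFA lies at 0.74 in vehicle and 0.49 with antimycin.

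Whether the antimycin response itself differed between lines was tested as a difference of responses. Between KO vector and WT vector cells 0 members passed (1.57% of all genes, 0.836% higher and 0.729% lower), with 8 at an unadjusted p below 0.05 and 1 by DESeq2. Between F137S and KO vector cells 0 passed (0% of all genes), with 3 unadjusted and 0 by DESeq2. The same held between SLC25A12-WT and WT vector cells (0% of all genes), with 3 and 0. SLC25A12-WT against KO vector cells gave 3 members (1.65% of all genes, 0.705% higher and 0.944% lower). They were ADM at -0.43 ± 0.106 (adjusted p 0.014), HK2 at -0.14 ± 0.035 (0.018) and EGLN1 at -0.13 ± 0.033 (0.017). Without a filter on low counts HK2 (adjusted p 0.074) and EGLN1 (0.11) did not pass. Leaving out single libraries ended the call in 7 of 16 cases for HK2 and 10 of 16 for EGLN1. That of ADM was lost without vehicle replicate 1 of KO vector (0.074) or of SLC25A12-WT cells (0.052), KO vector antimycin replicate 3 (0.05) or SLC25A12-WT antimycin replicate 2 (0.075).

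Between dMTS-DELE1 and F137S cells 4 responses differed (11.9% of all genes, 8.24% higher and 3.7% lower). That of VEGFA was smaller in dMTS-DELE1 cells (-0.25 ± 0.057, adjusted p 0.0012) and that of HK2 was higher (0.18 ± 0.036, adjusted p 0.00018), and both kept the call without each of the 16 libraries. HK2 was 152.2, 141.0, 149.5 and 147.9 CPM in F137S cells in vehicle and 145.8, 147.0, 147.4 and 143.0 CPM with antimycin, which overlap. EGLN3 fell with antimycin to 8.51, 8.72, 8.63 and 8.42 CPM in dMTS-DELE1 cells and stood at 13, 13.9, 11.8 and 12.8 CPM in F137S cells (difference -0.33 ± 0.104, adjusted p 0.023). It was lost without F137S vehicle replicate 3 (adjusted p 0.063). KDM3A differed by 0.16 ± 0.045 (adjusted p 0.011). That call was lost without 5 of 16 libraries and when these groups were fitted alone (0.06).

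Several steps of glycolysis are shared by isozymes, whose shares were taken per length of exon. ENO2 made up 1.06% ± 0.0173 (SD, n = 4) of enolase in WT vector and 1.76% ± 0.0202 in KO vector cells in vehicle. Its share in vehicle was 1.82% ± 0.0439 in F137S and 2.42% ± 0.0404 in dMTS-DELE1 cells. With antimycin it was 1.49% ± 0.0275, 2.24% ± 0.0712, 2.25% ± 0.0472 and 2.83% ± 0.0905 in these lines, in the same order. The platelet-type phosphofructokinase PFKP went from 39.2% ± 0.286 of its family in WT vector cells in vehicle to 33.1% ± 0.623 with antimycin, as PFKL went from 29.2% ± 0.556 to 32.6% ± 0.581. LDHA made up 35.1% ± 0.220 of LDHA and LDHB in WT vector and 31.7% ± 0.178 in KO vector cells in vehicle. In F137S cells it made up 32.1% ± 0.767 and in dMTS-DELE1 cells 30.9% ± 0.469. These shares carry the doubt on LDHB given above and have no test of their own.

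Genes around the members were read from 3 further lists. Of 16 tested HIF pathway components 6 rose and 5 fell with antimycin in WT vector cells (51.9% of all genes changed), and 6 were higher and 5 lower in KO vector than in WT vector cells in vehicle (48.3% of all genes). HIF1A, the main alpha subunit, moved little, at -0.075 ± 0.033 with antimycin in WT vector cells (adjusted p 0.046) and -0.065 ± 0.033 in KO vector against WT vector cells (adjusted p 0.093). HIF3A, a further alpha subunit, had the largest difference between these lines in the list, at a mean of 2.91 CPM in KO vector and 0.971 CPM in WT vector cells in vehicle (1.58 ± 0.189). EPAS1, the alpha subunit of HIF-2, was lower in KO vector cells (-1.03 ± 0.069), and ARNT2 was higher (0.60 ± 0.046). VHL was higher in KO vector (0.23 ± 0.022) and in dMTS-DELE1 against F137S cells (0.39 ± 0.022). With antimycin CITED2, which competes with HIF for its coactivators, rose in WT vector cells (0.36 ± 0.046), and the coactivators EP300 and CREBBP fell (-0.33 ± 0.027 and -0.32 ± 0.025).

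Of 34 other tested HIF target genes 7 rose and 15 fell with antimycin in WT vector cells (25.5% and 26.4% of all genes). DDIT4, an inhibitor of mTORC1, rose by 1.07 ± 0.039 and PPFIA4 by 0.88 ± 0.070, and the demethylase KDM4C fell by 0.71 ± 0.064. In KO vector against WT vector cells in vehicle 4 were higher and 20 lower (22.7% and 25.6% of all genes), the lower among them CA12 (-1.10 ± 0.095) and BHLHE40 (-0.76 ± 0.065), and HMOX1 was higher (0.725 ± 0.043). dMTS-DELE1 against F137S cells gave 7 higher and 11 lower (17.7% and 24.1% of all genes), with STC2 (1.06 ± 0.027), HMOX1 (0.80 ± 0.040) and DDIT4 (0.60 ± 0.038) higher. DDIT4, STC2 and HMOX1 are also known as genes of stress pathways other than HIF. Of 28 other glycolysis and lactate genes 8 rose and 2 fell with antimycin in WT vector cells, against the same 25.5% and 26.4% of all genes. PCK2, the mitochondrial enzyme that makes phosphoenolpyruvate, rose by 1.21 ± 0.046 and the glucose transporter SLC2A3 by 0.56 ± 0.067. In KO vector against WT vector cells in vehicle 3 were higher and 9 lower (22.7% and 25.6% of all genes), with the monocarboxylate carrier SLC16A7 (-0.61 ± 0.086), the carrier chaperone BSG (-0.35 ± 0.027) and the glucose transporter SLC2A1 (-0.27 ± 0.050) lower. dMTS-DELE1 against F137S cells gave 4 higher and 9 lower in vehicle (17.7% and 24.1% of all genes), with PGM2 (-0.31 ± 0.035) lower and PCK2 (0.54 ± 0.047) higher.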

How the data were processed

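Poly(A) RNA of 40 HEK293T libraries was measured, with 4 libraries for each of 5 lines and 2 treatments. The authors deposited raw counts per gene symbol. The submitters' processing notes name hg38, HISAT2 2.1.0 and featureCounts 2.0.6. Neither annotation nor strand setting is given in the sources used here, so reads of overlapping or antisense genes cannot be separated. Exon lengths and overlaps come from GENCODE on GRCh38.

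Counts were filtered with filterByExpr, scaled by TMM and fitted over all 40 libraries with edgeR 4.0.16 in R 4.3.3 (quasi-likelihood test, 1 coefficient per group). Every comparison was a contrast of that fit. P-values were adjusted by Benjamini-Hochberg over 16739 genes. The SE is the fold change divided by the root of the F statistic. CPM uses the TMM-scaled total. The fit was tested on simulated data.

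The members and lists were chosen with earlier results of these data known. Values per library are given for GAPDH, HK2, LDHA, PGK1, VEGFA, CA9, BNIP3, ALDOC, ENO2 and NDRG1 (large line differences in vehicle; with antimycin the scarce SLC16A3 differed more than NDRG1) and ADM and EGLN3, whose responses differed most. From the further lists, named genes come from the 4 called genes with the largest change in each comparison, not all of them shown, beside HIF1A and VHL. Alternatives were DESeq2 1.42.0 size factors and Wald test, no filter, another prior count, the replicate block, counts halved, the compared groups alone, no SLC25A12-WT libraries, and each library left out.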

Additional observations from a re-analysis of the deposited data

Results flagged for a closer look

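In 15 of 310 groups of 4 libraries, 1 library stood apart from the rest by Dixon's test. Chance gives this in about 1 of 20 groups, so the number is near that of chance. The test sets a gap against the range of the 4 libraries, so a small difference in CPM can be flagged. GPI stood at 356.2 CPM in the lowest dMTS-DELE1 library in vehicle (the others 381.1 to 384.2). PFKP stood at 151.5 CPM in the highest F137S library in vehicle (the others 143.9 to 144.8). ALDOA stood at 10.8 CPM in the highest KO vector library in vehicle (the others 9.79 to 9.95). TPI1 stood at 1024.7 CPM in the highest KO vector library with antimycin (the others 982.9 to 988.0). GAPDH stood at 1876.5 CPM in the highest SLC25A12-WT library in vehicle (the others 1806.6 to 1812.0). PGK1 stood at 587.2 CPM in the highest KO vector library with antimycin (the others 568.0 to 570.6). PGAM1 stood at 401.0 CPM in the highest dMTS-DELE1 library with antimycin (the others 386.4 to 387.6). PKM stood at 1369.7 CPM in the highest SLC25A12-WT library with antimycin (the others 1327.3 to 1334.3). ADM stood at 9.29 CPM in the lowest F137S library in vehicle (the others 10.5 to 10.7). VEGFA stood at 78.0 CPM in the highest WT vector library with antimycin (the others 75.4 to 75.7). EGLN1 stood at 163.2 CPM in the highest SLC25A12-WT library in vehicle (the others 160.4 to 160.6), 144.2 CPM in the lowest KO vector library with antimycin (the others 146.7 to 147.2) and 135.7 CPM in the highest dMTS-DELE1 library with antimycin (the others 130.7 to 131.2). P4HA2 stood at 27.9 CPM in the lowest WT vector library with antimycin (the others 29.5 to 29.6). KDM3A stood at 64.0 CPM in the highest F137S library with antimycin (the others 63.0 to 63.1).

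The antimycin response differed between lines for 7 results. Between SLC25A12-WT and KO vector cells, where 1.65% of all genes differed, the log2 difference was -0.14 for HK2, -0.13 for EGLN1 and -0.43 for ADM. Each of these calls was lost without some single libraries, as given above. Between dMTS-DELE1 and F137S cells, where 11.9% of all genes differed, the log2 difference was -0.25 for VEGFA, 0.16 for KDM3A, 0.18 for HK2 and -0.33 for EGLN3. The calls for KDM3A and EGLN3 were lost without some single libraries.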

How the results depend on the processing

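No member result that passed the threshold in the main fit or in the alternative reversed its direction. Changes of sign among results that passed in neither were not counted. Of 620 member results 614 kept their side of the threshold with DESeq2 size factors, 609 with no filter, 604 with the compared groups alone, 619 with counts halved and all with a prior count of 0.5. With the DESeq2 Wald test 600 of 614 did. The difference of response between KO vector and WT vector cells gave 1 member with the DESeq2 Wald test against 0, and that between SLC25A12-WT and KO vector cells gave 1 with no filter against 3. Leaving out single libraries gave 0 to 1 members for the first, 0 to 3 for the second, 2 to 8 for dMTS-DELE1 against F137S cells (4 with all libraries) and 0 to 1 for F137S against KO vector cells, in vehicle and with antimycin alike. The causes were not tested. Same-numbered libraries did not deviate together (mean r -0.001, from -0.059 to 0.051). With the replicate block 17 members were called in WT vector cells with antimycin, as without it, and of 620 member results 2 calls were lost, EGLN1 (0.054, adjusted p 0.054) and PKM (-0.042, adjusted p 0.051), both for SLC25A12-WT against KO vector cells. Small changes, scarce members and genes sharing exon bases are limited by the depth and the counting.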
